A study of Mus musculus with 22 samples.

Results

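Transcripts of 10 genes of the brain's extracellular matrix were measured in the anterior cingulate cortex (ACC) of 22 mice, as bulk tissue. The genes were Acan, Bcan, Ncan, Vcan, Tnr, Hapln1, Hapln2, Hapln4, Ptprz1 and Has3, picked by name from the 37786 genes of the count table as the core of the perineuronal net and of the looser matrix around it. The mice were adult wildtype C57BL/6J males. All of them, controls included, carried AAV5-CaMKIIa-ChR2(H134R)-EYFP in the basolateral amygdala (BLA) on both sides and an optic fiber in the ACC. In 10 stimulated mice blue light was given to BLA terminals in the ACC in 9 sessions, and in 12 control mice the light stayed off. The CaMKIIa promoter restricts the opsin mostly to excitatory neurons, so other BLA neurons were mostly not driven directly. The comparison asked whether repeated activation of this input came with other matrix transcript levels in the ACC.

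Perineuronal nets are lattices of hyaluronan, proteoglycans and crosslinking proteins that wrap the cell body and proximal dendrites of some neurons, in cortex mostly parvalbumin interneurons. Hyaluronan, spun out by synthases in the plasma membrane, is the backbone. Lecticans (aggrecan, brevican, neurocan and versican) are chondroitin sulfate proteoglycans that bind hyaluronan at one end and tenascin-R at the other, while link proteins of the HAPLN family clamp the lectican to the hyaluronan chain. The receptor phosphatase gene Ptprz1 also makes phosphacan, a secreted proteoglycan of the same matrix. Nets form as developmental plasticity ends and are remodeled by extracellular proteases.

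Total counts per library ranged from 23090483 to 43668462, and mitochondrial genes took 0.982% to 4.81% of them. Library numbers in the labels ran from 1 to 23, without a 7, as controls then stimulated mice, and then controls and stimulated mice again. Libraries 1 to 11 (6 controls, 4 stimulated) are called the first run here and libraries 12 to 23 (6 controls, 6 stimulated) the second run. The study prepared its animals in batches, but the labels do not say whether these runs are the batches. Control replicates 9 and 11, both of the second run, stood apart from the other 20 mice. Summed over 12 mature oligodendrocyte markers, their levels in CPM (counts scaled to the size of the library, as everywhere below) were 20043 and 14745, against 2400 to 6377 in the others. Results over both runs that rest on them are therefore given with and without them. Controls 1 to 3 of the first run had the highest mitochondrial shares, 3.04% to 4.81% against at most 2.80% in the other mice, and their 10 astrocyte markers summed to 6203 to 7856 CPM, against 3887 to 6196 in the other mice of that run. None of the 12 markers, nor of the 10 parvalbumin interneuron and 8 excitatory neuron markers, was at 0 in the table.

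The lecticans and link proteins lie in the genome as neighbors (mm10 coordinates, GENCODE M21). Bcan (chromosome 3, 87987531 to 88000230, minus strand) and Hapln2 (88021750 to 88027583, minus strand) are 21.52 kb apart. Ncan (chromosome 8, 70093085 to 70120873, minus strand) and Hapln4 (70083457 to 70090862, plus strand) are 2.223 kb apart. Vcan (chromosome 13, 89655312 to 89742509, minus strand) and Hapln1 (89539796 to 89611652, plus strand) are separated by 43.66 kb. Acan (chromosome 7, 79053483 to 79115099, plus strand) ends 3 bases from Hapln3, the remaining link protein gene. Tnr (chromosome 1, 159523769 to 159931729), Ptprz1 (chromosome 6, 22875502 to 23052916) and Has3 (chromosome 8, 106870242 to 106884566), all on the plus strand, have no such partner among the 10. Antisense genes share 443 of the 12867 exon bases of Tnr and 352 of the 6380 of Has3. The strand setting of the counting was not given in the sources used here, so those reads cannot be told apart.

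A window of sequence before the RefSeq start site (GRCm38.p6) was matched for 8 of the 10 genes, all but Hapln4 and Has3. That of Hapln1 lay inside the gene, with all 250 bases in annotated exon, and it is left out here. CpG pairs, the sites of DNA methylation and a mark of broadly used promoters, divided the other windows of 250 bases. Acan had 26 CpG pairs, Ptprz1 22, Bcan 16 and Vcan 10, against 6 in Ncan and 2 each in Tnr and Hapln2. The median over 32851 windows in the table was 6. The GC box, GGGCGG on either strand, occurred in 5 of these windows (Acan, Bcan, Ncan, Vcan and Ptprz1) and in 32.74% of all windows. The neighbors Bcan and Hapln2, read from one strand, are shown because they differ in this respect, and Acan because it is the most CpG-rich, with CpG pairs in capitals. The windows are chr3:88000357-88000606 (Bcan, minus strand), chr3:88027584-88027761 (Hapln2, minus strand, cut where annotated exon begins) and chr7:79052976-79053225 (Acan, plus strand).
Bcan: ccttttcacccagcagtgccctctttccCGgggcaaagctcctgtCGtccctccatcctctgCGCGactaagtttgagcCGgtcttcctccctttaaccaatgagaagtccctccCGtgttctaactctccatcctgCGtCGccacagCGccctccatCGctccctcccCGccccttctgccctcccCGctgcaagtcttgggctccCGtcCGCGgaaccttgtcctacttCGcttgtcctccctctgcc
Hapln2: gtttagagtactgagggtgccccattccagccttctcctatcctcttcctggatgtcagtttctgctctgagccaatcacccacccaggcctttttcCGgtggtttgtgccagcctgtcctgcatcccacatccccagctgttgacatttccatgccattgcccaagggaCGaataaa
Acan: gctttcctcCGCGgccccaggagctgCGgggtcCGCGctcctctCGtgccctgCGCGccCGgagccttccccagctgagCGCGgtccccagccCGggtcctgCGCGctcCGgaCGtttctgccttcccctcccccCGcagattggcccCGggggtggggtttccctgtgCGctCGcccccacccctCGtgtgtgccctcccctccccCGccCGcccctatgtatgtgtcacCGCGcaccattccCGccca
The motif and the windows were chosen with the expression values known, and a match describes letters, not binding.

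Levels of the 10 genes differed widely. On the scale of CPM per kb of exon, Bcan was highest (94.3 ± 21.5, SD, n = 22 mice), followed by Hapln4 (34.1 ± 12.4), Ncan (24.6 ± 5.72) and Ptprz1 (15.1 ± 5.99). Next came Hapln2 (4.62 ± 3.79), Tnr (3.95 ± 1.26) and Hapln1 (3.83 ± 0.898), and far under them Vcan (0.614 ± 0.187), Acan (0.179 ± 0.0977) and Has3 (0.0692 ± 0.0367). Bcan was above Hapln4 in 22 of 22 mice and Hapln4 above Ncan in 19. Ncan exceeded Ptprz1 in 22 mice and Ptprz1 exceeded Hapln2 in 21. Hapln2, Tnr and Hapln1 could not be ordered, since Hapln2 was above Tnr in 10 of 22 mice and Tnr above Hapln1 in 12. Hapln1 exceeded Vcan and Vcan exceeded Acan in every mouse, and Acan exceeded Has3 in 20. The proteoglycan most tied to perineuronal nets was thus among the rarest transcripts, with 11 to 102 counts of Acan per mouse, and Has3 had 4 to 41, so both were measured with much less precision than Bcan at 5600 to 17009.

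**Figure D1:**
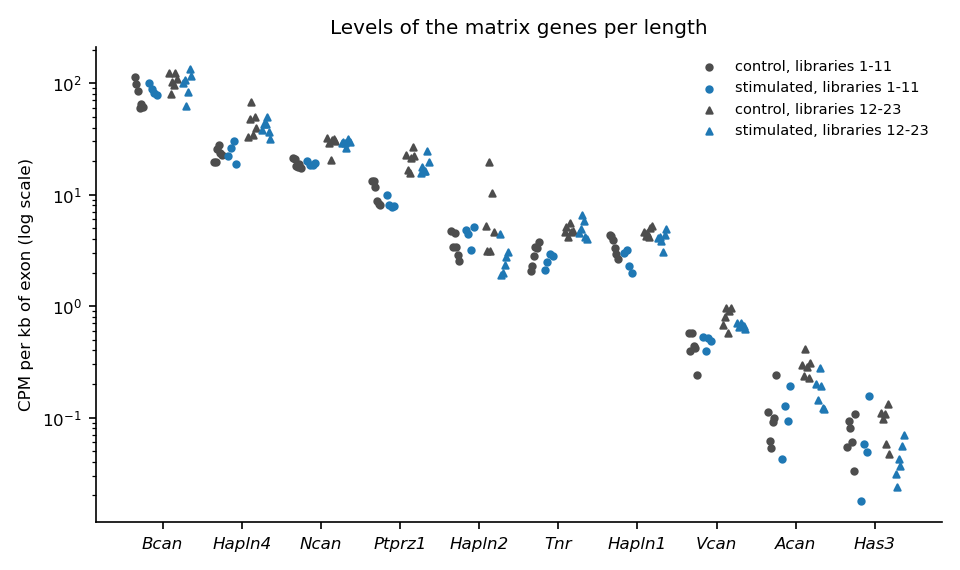
CPM per kb of exon (log scale) of the 10 matrix genes, ordered by their mean, with 1 point per mouse. Color gives the group and shape the run of library numbers, and the 3 genes in the middle (Hapln2, Tnr, Hapln1) overlap while Bcan at 94.3 and Has3 at 0.0692 mark the ends.

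None of the 10 genes passed an adjusted p of 0.05 between stimulated and control mice, and 3 of them were lower at an unadjusted p under 0.05 (quasi-likelihood fit in edgeR with run as covariate, adjusted by Benjamini-Hochberg over 17524 genes). These were Hapln1, Ptprz1 and Hapln2. Of all genes tested, 0% passed the adjusted and 11.5% the unadjusted threshold, 5.45% on the lower side. With DESeq2 33 genes and with limma voom 1 gene passed the adjusted threshold, none of them among the 10. With limma voom 4 of the 10 were lower at an unadjusted p under 0.05 (Hapln1, Ptprz1, Acan and Has3), where 16.3% of all genes had one, and Hapln2 had -0.36 (p = 0.165). Without controls 1 to 3 the count was again 3 of the 10, with Acan (-0.62, p = 0.0227) in place of Ptprz1, where 7.68% of all genes had one. The log2 fold change was below 0 for 8 of the 10 genes, against 47.4% of all genes, with a median of -0.18 against 0.01. Within the first run it was below 0 only for Tnr (-0.16), Hapln1 (-0.43) and Ptprz1 (-0.32), and within the second for all but Tnr (0.031). The share of all genes below 0 is not given for single runs. Since tissue was measured in bulk, fewer cells of a type and less RNA per cell cannot be told apart.

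Hapln1, the link protein that stabilizes aggrecan on hyaluronan in nets, had the smallest p of the 10. Its CPM had a lowest, median and highest value of 15.6, 25.2 and 31.1 in the 12 controls and of 11.8, 20.8 and 28.8 in the 10 stimulated mice. In the first run the stimulated mice had 17.7, 18.9, 13.5 and 11.8, with controls from 15.6 to 25.8 around a median of 21.3. All 4 stimulated mice of that run were under the control median and 2 were under the lowest control, although the ranges overlapped. In the second run controls lay between 24.8 and 31.1 (median 26.9) and stimulated mice between 17.9 and 28.8 (median 24.5), and 4 of the 6 stimulated mice were under the lowest control. The log2 fold change was -0.30 ± 0.10 (SE) with p = 0.0060 and an adjusted p of 0.333. It was -0.43 within the first run (unadjusted p = 0.0228) and -0.23 within the second (unadjusted p = 0.046), and it stayed between -0.35 and -0.26 when any single mouse was left out, always with an unadjusted p under 0.05. The first run's higher controls were 1 to 3, at 25.8, 25 and 23.1, with controls 4 to 6 at 19.5, 17.3 and 15.6, and without controls 1 to 3 the log2 fold change was -0.21 (unadjusted p = 0.0353). Without the run in the model it had an unadjusted p of 0.119, and 1 of the 10 genes had one under 0.05 (Hapln2), as did 3.61% of all genes.

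Ptprz1, the gene of the receptor phosphatase and of phosphacan, followed. Its CPM had a lowest, median and highest value of 115, 206 and 383 in controls and 110, 226 and 353 in stimulated mice, so the ranges nearly coincided across the runs. The first run's stimulated mice had 141, 115, 110 and 112 CPM, with controls from 115 to 191 (median 146). In the second run controls ranged from 221 to 383 (median 312) and stimulated mice from 221 to 353 (median 242). Within each run most stimulated mice were under the control median, 4 of 4 and 5 of 6. In the first run controls 1 to 3 had 191, 189 and 165, and controls 4 to 6, at 126, 118 and 115, lay within the range of the stimulated mice. The log2 fold change was -0.25 ± 0.11, with p = 0.0303 and an adjusted p of 0.392, and its unadjusted p was above 0.05 without control 11 (-0.22). With group alone the fold change was -0.13 (p = 0.58). It was -0.00026 (p = 0.999) with the replicate block in place of the run and -0.23 (p = 0.0682) with both. Replicates 5 and 6 are controls of the first run and stimulated mice of the second. The block without the run thus mixes the difference between runs into that between groups. Without controls 1 to 3, a setting chosen after seeing the data, the log2 fold change was -0.14 (p = 0.185), and the part of the mitochondrial share and of the astrocyte markers was not tested.

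Hapln2, the link protein found at nodes of Ranvier in myelinated tracts, had the lowest fold change of the 10 and the least even one. Control values in the second run were 7.4 to 12.3 CPM in 4 mice, 24.6 in control 11 and 46.6 in control 9, while the 6 stimulated mice had 4.55 to 10.4. In the first run the 6 controls had 5.97 to 11.1 (median 8.03) and the 4 stimulated mice 11.5, 10.5, 7.61 and 12.1. Stimulated mice were thus low in the second run, where 5 of 6 were under the lowest control, and high in the first, where 2 of 4 were over the highest control. The log2 fold change over both runs was -0.66 ± 0.31 (p = 0.0444, adjusted p = 0.422), but 0.32 within the first run and -1.52 within the second. The difference of these effects was -1.78 ± 0.51 (interaction term, p = 0.0018, adjusted p = 0.545). Of the 10 genes only Hapln2 reached an unadjusted p under 0.05 in that test, as did 8.01% of all genes. Leaving out control 9 alone gave -0.35, and its unadjusted p was also above 0.05 without control 1 or 11 or without stimulated replicate 3, 6, 7, 8, 9 or 10, one at a time. Without controls 9 and 11 the fold change was -0.12 (p = 0.491) and the difference between the runs -0.89 (p = 0.0094, adjusted p of 1).

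**Figure D2:**
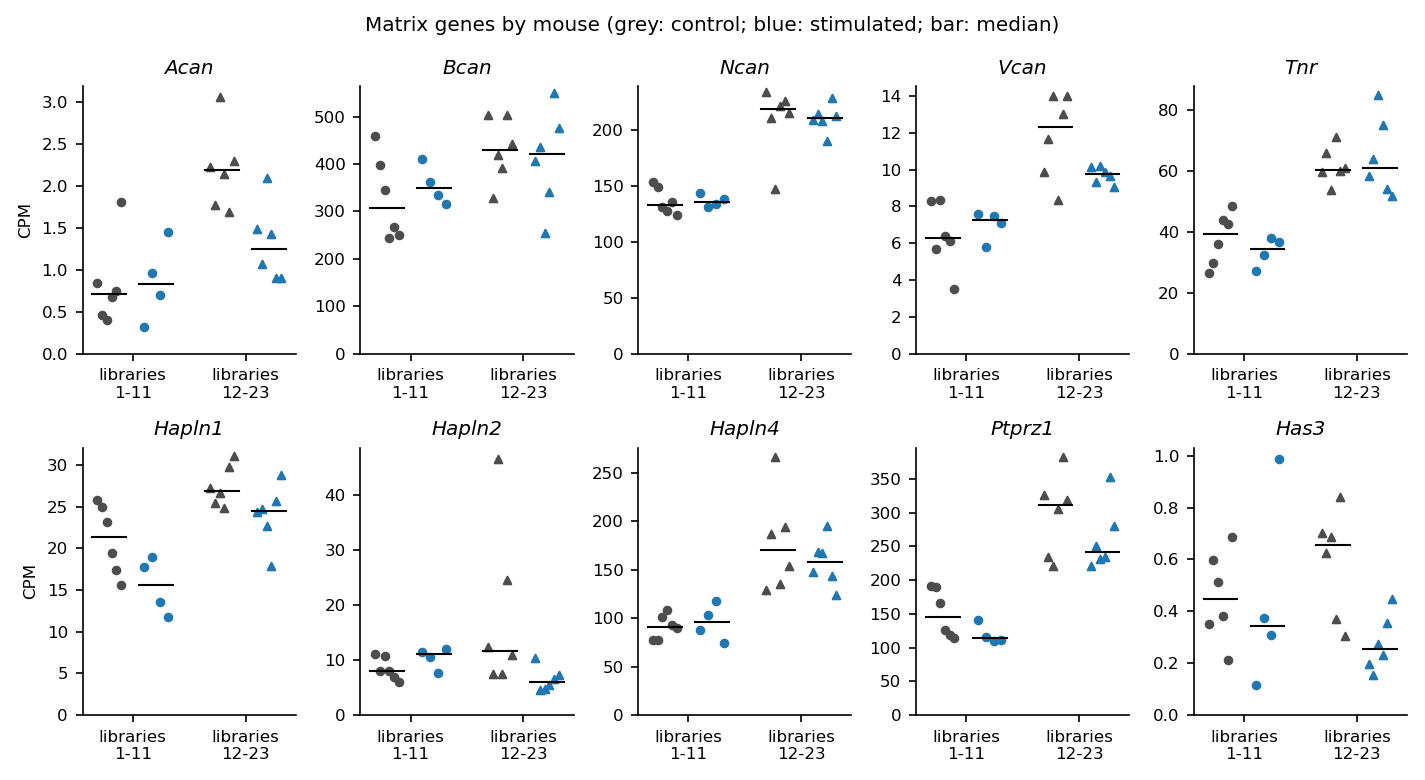
CPM of the 10 matrix genes in each mouse (linear axes from 0), controls in grey and stimulated mice in blue, with libraries 1 to 11 on the left and 12 to 23 on the right of each panel and bars at the medians. Most genes sit higher on the right, and controls 9 and 11 stand alone at 46.6 and 24.6 in the panel of Hapln2.

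Mature oligodendrocyte markers moved with Hapln2 in the second run. All 12 of them (Mbp, Mag, Mog and the like) were lower in stimulated mice at an unadjusted p under 0.05 (median log2 fold change -0.69), and the difference between runs was below 0 at that threshold for all 12 as well. Without controls 9 and 11, 2 of the 12 were lower at that threshold (median -0.13) and 4 in the difference between runs. Their summed CPM then overlapped between groups, with 3266 to 6377 in controls and 3442 to 5885 in stimulated mice of the first run and 3627 to 5449 and 2400 to 4620 in the second. With limma voom 5 of the 12 were lower at that threshold (median -0.35), and within the first run 0 were. In the second run the log2 CPM of Hapln2 followed the log2 of the summed markers with r = 0.97 (permutation p = 1e-05, the smallest that 100000 resamples can give; rho = 0.93, p = 5e-05; n = 12), and with r = 0.89 without the 2 mice farthest from the median marker level. In the first run r was 0.62 (permutation p = 0.0573; rho = 0.64, p = 0.0543; n = 10), and 0.81 without the 2 farthest mice. Between the groups of that run Hapln2 had a log2 fold change of 0.32. The summed markers there had a median of 4303 CPM in stimulated mice and 4691 in controls. Adjusted over the 4 relations of this kind computed (this pair and Bcan with astrocyte markers, in each run), the p for r was 4e-05 in the second run and 0.0573 in the first. Both pairs were chosen after their values had been seen. The part of oligodendrocyte content in the difference of Hapln2 between groups was not tested.

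Acan, the gene of aggrecan, reached an unadjusted p under 0.05 within the second run and not within the first, and the difference between the runs did not pass the test. In the second run the 6 controls ranged from 1.68 to 3.05 CPM (median 2.18) and the 6 stimulated mice from 0.897 to 2.1 (median 1.25). Of those stimulated mice 5 were under the lowest control. In the first run the stimulated mice had 0.314, 0.955, 0.699 and 1.45, with controls from 0.398 to 1.8, so that 1 stimulated mouse was under the lowest control. The log2 fold change was -0.40 ± 0.26 over both runs (p = 0.139, adjusted p = 0.552), 0.08 ± 0.47 within the first and -0.78 ± 0.24 within the second (unadjusted p = 0.0049, adjusted p = 0.281). Without controls 9 and 11 the fold change over both runs was -0.34 (p = 0.238). The difference between runs was -0.81 ± 0.51 (p = 0.123, adjusted p = 0.719). It rested in part on single mice, with -1.25 without control 6 and -1.12 without stimulated replicate 1, both at an unadjusted p under 0.05, and -0.48 without stimulated replicate 4. Of the 10 parvalbumin interneuron markers 0 had an unadjusted p under 0.05 over both runs, and 3 had one in the test of the difference between runs, on the lower side in the second, where 8.01% of all genes had one. Their summed CPM in the second run was 588 to 905 in controls and 527 to 839 in stimulated mice, and their part in the values of Acan was not tested.

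Has3, one of the hyaluronan synthases, had similarly placed values at very low counts. In the second run controls had 0.303 to 0.842 CPM (median 0.656) and stimulated mice 0.153 to 0.449 (median 0.253), with 4 stimulated mice under the lowest control. In the first run the stimulated mice had 0.114, 0.373, 0.311 and 0.988, scattered beyond both ends of the controls (0.213 to 0.686). The log2 fold change was -0.57 ± 0.31 (p = 0.0829, adjusted p = 0.491), 0.01 within the first run and -1.12 within the second (unadjusted p = 0.00513). Over both runs it was -0.41 (p = 0.23) without controls 9 and 11, which had 0.688 and 0.842 CPM. Leaving out stimulated replicate 4 alone gave -0.96 and leaving out control 5 alone -0.66, each with an unadjusted p under 0.05, and the step without stimulated replicate 4 took Acan to -0.60, also under 0.05.

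Vcan, whose product versican is made largely by oligodendrocyte progenitors, had 8.35 to 14 CPM (median 12.3) in the second run's controls and 9.07 to 10.2 (median 9.75) in its stimulated mice. The stimulated mice lay close together inside the control range. The first run gave 3.52 to 8.33 in controls and 7.58, 5.78, 7.45 and 7.09 in stimulated mice. Its log2 fold change was -0.10 ± 0.12 (p = 0.404), and -0.32 ± 0.13 within the second run (unadjusted p = 0.021). Controls 9 and 11 had 14 and 13 CPM, among the 3 highest controls there, and without them the fold change over both runs was -0.039, while without control 6 it was -0.17. Of 10 oligodendrocyte progenitor markers 8 were below 0 in log2 fold change, 3 of them lower at an unadjusted p under 0.05 and 1 without controls 9 and 11. The 3 were Bcas1 (-0.80), also made by maturing oligodendrocytes, Pcdh15 (-0.31) and Olig2 (-0.29), a factor of the whole lineage, while Pdgfra (-0.12), Cspg4 (-0.06), C1ql1 (0.07) and Matn4 (0.02) were not among them. Their summed CPM in the second run was 345 to 775 in controls, with 775 and 712 in controls 9 and 11, and 282 to 379 in stimulated mice. The first run gave sums of 205 to 340 and 221 to 298, and the part of these markers in the values of Vcan was not tested. Within the second run 5 of the 10 genes (Acan, Vcan, Hapln1, Hapln2 and Has3) thus reached an unadjusted p under 0.05, all lower, as did 12.4% of all genes, 8.3% on the lower side. Within the first run only Hapln1 did, as did 5.56% of all genes. None passed the adjusted threshold in either run, and the second run was not fitted without controls 9 and 11.

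Bcan, Ncan, Tnr and Hapln4 had log2 fold changes between -0.06 and 0.02, and without controls 1 to 3 Bcan had 0.11, Tnr -0.13 and Hapln4 -0.14, with p of 0.191 or more. Bcan, the lectican of astrocytes and adult cortex, had a log2 fold change of 0.02 ± 0.12 (p = 0.894), with 243, 394 and 503 CPM as lowest, median and highest control and 255, 384 and 549 in stimulated mice. Ncan, the lectican of the juvenile and diffuse matrix, had 0.01 ± 0.06 (p = 0.936), with controls from 124 to 234 CPM and stimulated mice from 131 to 229. Tnr, which crosslinks lecticans, had -0.04 ± 0.10 (p = 0.684) and -0.097 without controls 9 and 11, and Hapln4, a link protein of nets known best from brainstem and cerebellum, -0.06 ± 0.11 (p = 0.581). The ranges of the groups overlapped for these 4 genes in both runs. Tnr had 26.4 to 71.2 CPM in controls and 27 to 84.8 in stimulated mice, and Hapln4 77.1 to 267 and 74.5 to 196.

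**Figure D3:**
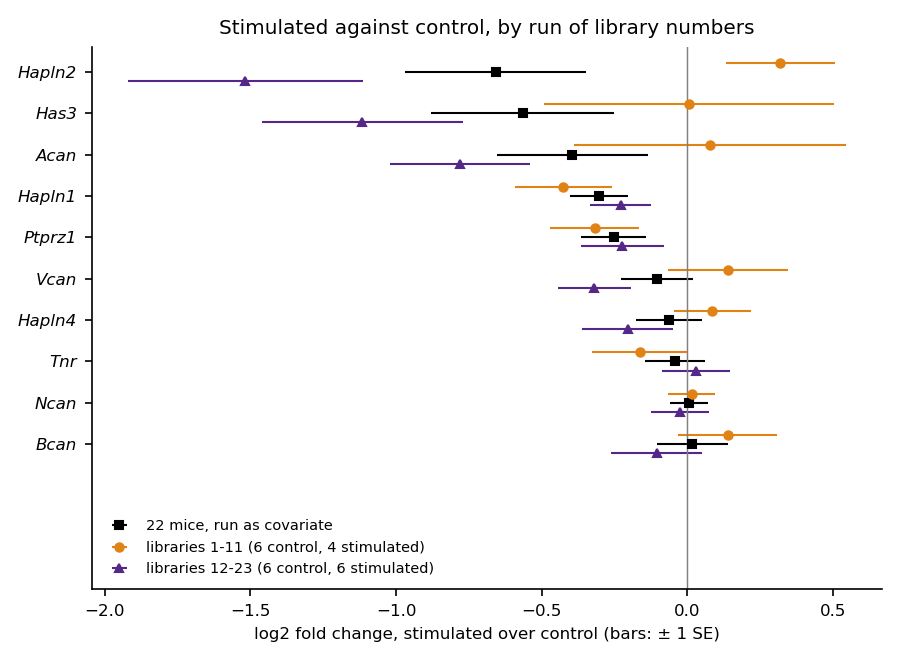
Log2 fold change of stimulated over control mice with 1 SE for each gene, over all 22 mice with run as covariate (black squares), within libraries 1 to 11 (orange circles) and within libraries 12 to 23 (purple triangles). Hapln1 and Ptprz1 lie below 0 in both runs, and Hapln2 goes from 0.32 to -1.52.

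For 8 of the 10 genes the runs of library numbers differed by more than the groups did. With group as covariate, the same 8 were higher in the second run at an adjusted p under 0.05, where 33.7% of all genes were higher and 34.3% lower. The log2 difference was 1.06 for Acan, 1.05 for Ptprz1, 0.85 for Hapln4, 0.82 for Tnr, 0.70 for Vcan, 0.62 for Ncan, 0.49 for Hapln1 and 0.31 for Bcan, with adjusted p from 5.85e-09 (Ncan) to 0.0266 (Bcan). In Ncan the first run had 124 to 154 CPM over both groups and the second 190 to 234 in all mice but control 9, which had 147. Hapln2 (0.31, p = 0.33) and Has3 (-0.09, p = 0.777) did not pass the test. Summed markers of excitatory neurons also differed between the runs, at 3273 to 4018 CPM in the first and 4913 to 7972 in the second. Which property of the runs these values go with was not tested.

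Among themselves the 10 genes did not vary as a block. Pearson's r of log2 CPM over the mice of one run is given here as a description, since all values come from the same libraries and share their depth and tissue makeup. Bcan and Tnr were opposed, with r = -0.97 over 10 mice of the first run and -0.83 over 12 of the second. Ptprz1 went with Hapln1 (0.87 and 0.57), with Bcan (0.66 and 0.70) and with Ncan (0.70 and 0.64). Vcan and Hapln2 went together at 0.71 in each run. Acan was near or below 0 with Bcan, Ncan and Ptprz1 in both runs, and its r with Vcan and Hapln1 changed sign between them.

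**Figure D4:**
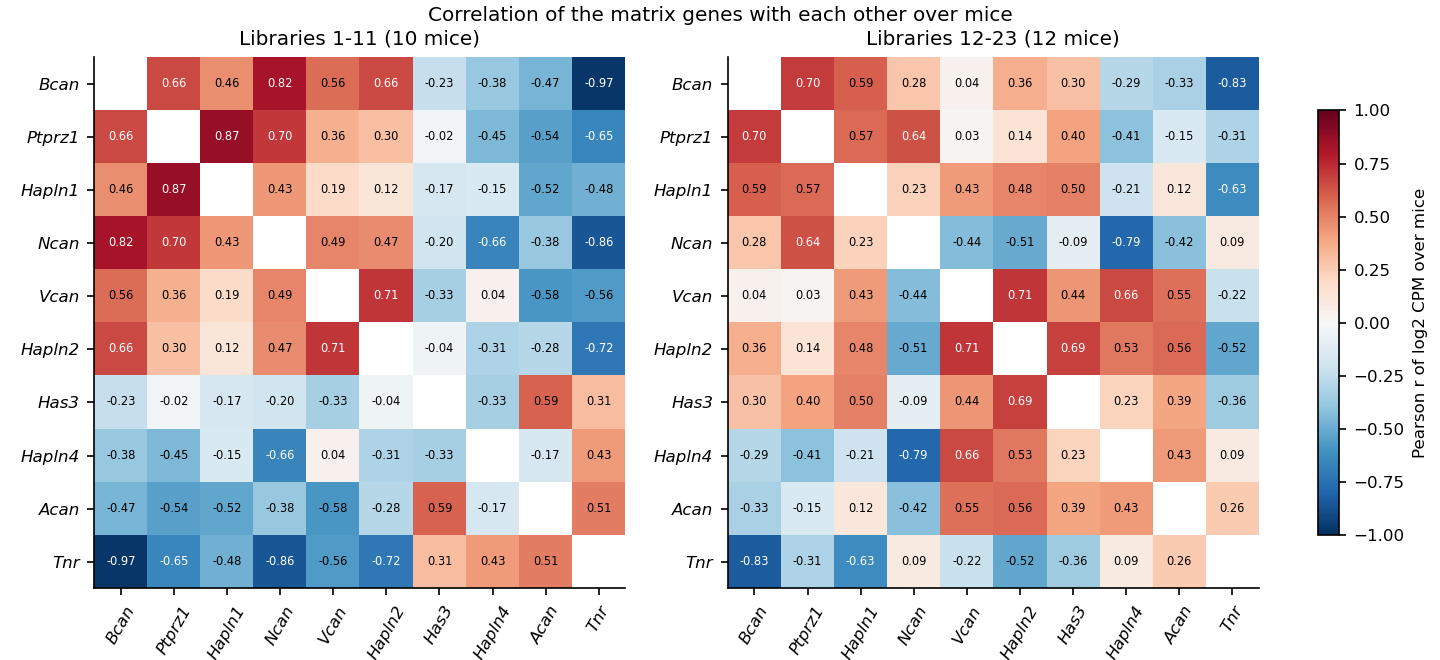
Pearson's r of log2 CPM between the 10 matrix genes over the 10 mice of libraries 1 to 11 (left) and the 12 mice of libraries 12 to 23 (right), from blue (-1) to red (1), with no test. Bcan against Tnr is the most negative square in each panel (-0.97 and -0.83).

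Bcan tracked the astrocyte markers. Its log2 CPM went with the log2 of the summed CPM of 10 astrocyte markers (Aqp4, Gfap, Slc1a2 and the like) at r = 0.91 in the first run (permutation p = 0.00038; rho = 0.89, p = 0.00125; n = 10). In the second run r was 0.93 (permutation p = 2e-05; rho = 0.90, p = 0.00015; n = 12). Without the 2 mice farthest from the median marker level, r was 0.88 and 0.92. Both relations kept an adjusted p under 0.05 over the 4 computed (0.000507 and 4e-05 for r). The astrocyte markers themselves were below 0 in log2 fold change for 10 of 10 genes between groups, 1 of them at an unadjusted p under 0.05, with summed CPM of 3887 to 7856 in controls and 3789 to 7129 in stimulated mice.

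**Figure D5:**
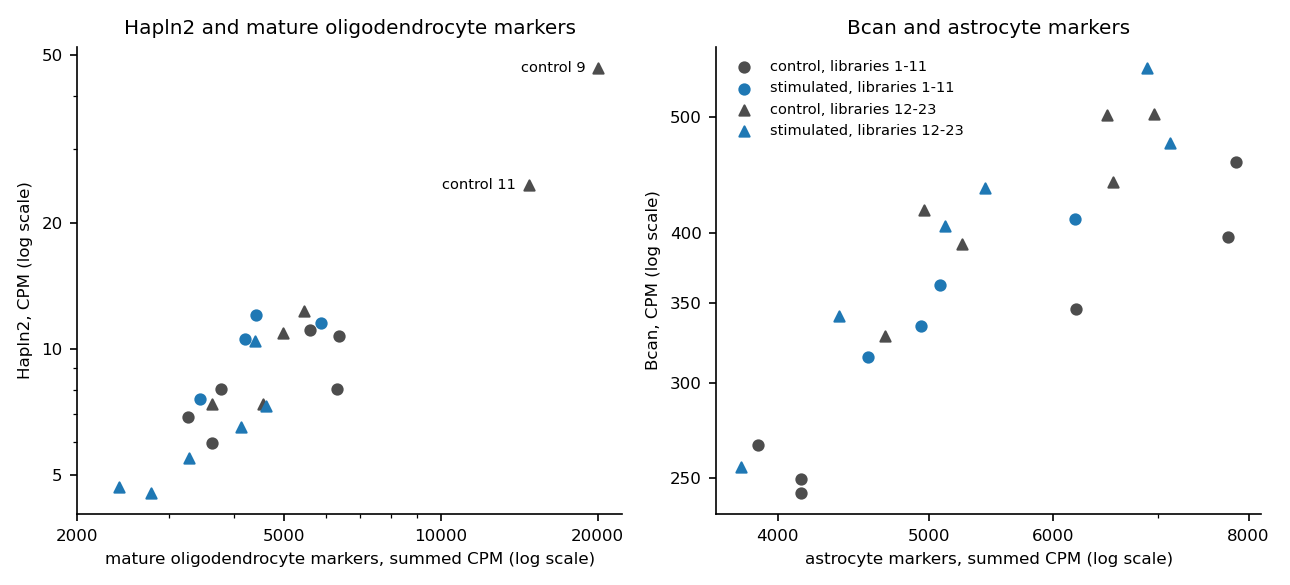
CPM of Hapln2 against summed CPM of 12 mature oligodendrocyte markers (left) and of Bcan against 10 astrocyte markers (right), log axes, 1 point per mouse with color for group and shape for run. Controls 9 and 11 stand at 20043 and 14745 on the left, and Bcan goes up with the astrocyte sum in both runs (r = 0.91 and 0.93).

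Lecticans were also set beside the link proteins next to them on the chromosome. Over 4 such pairs in 2 runs, 8 correlations were computed. Ncan and Hapln4 were opposed, with r = -0.66 in the first run (permutation p = 0.0396, adjusted p = 0.113; rho = -0.65, p = 0.05; n = 10) and -0.79 in the second (p = 0.00541, adjusted p = 0.0433; rho = -0.57, p = 0.0552; n = 12), and the adjusted p of rho was 0.221 in each. Without the 2 mice farthest from the median of Ncan these became -0.40 and -0.27, so the relation rested on those mice, control 9 with 147 CPM of Ncan and 267 of Hapln4 among them. Bcan and Hapln2 had r = 0.66 (permutation p = 0.0423, adjusted p = 0.113; rho = 0.52, p = 0.133) and 0.36 (p = 0.241, adjusted p = 0.385; rho = 0.33, p = 0.298). Vcan with Hapln1 (0.19 and 0.43) and Acan with Hapln3 (-0.16 and 0.17) had permutation p values of 0.165 to 0.651. Without the 2 farthest mice, r became 0.49 and 0.15 for Bcan with Hapln2, -0.16 and 0.23 for Vcan with Hapln1 and 0.60 and 0.37 for Acan with Hapln3, so that Vcan with Hapln1 and Acan with Hapln3 turned direction in the first run.

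The genes whose log2 CPM, centered within runs, was most like that of each member over the 22 mice differ from member to member. Each was picked for the highest r among the genes tested, so these r are high by choice, and none was tested. Bcan was closest to Slc27a1, Htra1 and Gpr37l1 (r = 0.96 for each), and Hapln2 to Pacs2 and the myelin gene Mal (0.94 for each). Hapln4 was closest to Nefm, the gene of a neurofilament subunit (0.94), Wnt10a (0.92) and Enpp2 (0.88), and Ptprz1 to Map2, the dendritic microtubule protein gene (0.94), Prex2 (0.93) and Apc (0.92). For Ncan these were Rap1gap2 (0.91), Tmem164 (0.90) and Med13l (0.88), for Tnr Zfp451 (0.90), Pbrm1 (0.89) and Med14 (0.88), and for Hapln1 Yes1 (0.87), Pnrc2 (0.86) and Chpt1 (0.85). The rare transcripts reached lower values. Has3 was closest to Dna2 (0.79), Plekha7 (0.72) and Gm37885 (0.71), Vcan to Nuf2 (0.75), 3300002I08Rik and Thbs4 (0.71 for each), and Acan to Map3k13 (0.72), Ibtk (0.72) and Sema3f (0.70). Some of these differed between the first and second run, with 0.92 and 0.48 for Acan with Ibtk and 0.83 and 0.44 for Vcan with 3300002I08Rik. None of the 10 had another of the 10 among its 3 closest genes.

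Of 63 other matrix genes tested, 8 had an unadjusted p under 0.05, 6 higher and 2 lower in stimulated mice, where 11.5% of all genes had one, and 0 passed the adjusted threshold. The median log2 fold change of the 63 was 0.02. The list of receptors and ligands of the net, relatives of the Nogo receptor included, held 4 of these 8, out of 9 tested. They included the Nogo receptor gene Rtn4r (0.23 ± 0.08, p = 0.0116) and its relative Rtn4rl2 (0.24 ± 0.10, p = 0.0181), both binders of inhibitory myelin ligands. The others were Nptx2, a secreted pentraxin that gathers glutamate receptors (0.29 ± 0.12, p = 0.0200), and the receptor phosphatase gene Ptprf (0.19 ± 0.08, p = 0.0239). Ptprf had an unadjusted p above 0.05 without control 9, 11 or 12 or stimulated replicate 6 or 7 (0.13 to 0.17), Rtn4rl2 without stimulated replicate 6 and Nptx2 without control 7, one mouse at a time. Of 8 excitatory neuron markers 6 were above 0 in log2 fold change between groups (median 0.12), 2 of them at an unadjusted p under 0.05, Neurod2 (0.23, p = 0.0082) and Slc17a7 (0.16, p = 0.0177). Without controls 9 and 11 that number was 1 and the median 0.05, without controls 1 to 3 it was 0 with a median of 0.10, and the part of these markers in the matrix genes' values was not tested. Of 21 enzymes of chondroitin sulfate synthesis, the sulfotransferase genes Chst15 (0.26 ± 0.09, p = 0.0076) and Chst12 (0.21 ± 0.08, p = 0.0115) were higher. Of 17 proteases and inhibitors, Adamts1 (-0.28 ± 0.11, p = 0.0163) and Adamts4 (-0.60 ± 0.24, p = 0.0183), both of which cleave lecticans, were lower. None of 11 other core genes and of 5 genes of hyaluronan breakdown reached that threshold. Adamts4 had 0.06 within the first run and -1.15 within the second, and its fold change without control 9 was -0.40. Adjusted p values of the 8 ran from 0.341 to 0.375. Without controls 9 and 11, 2 of the 63 genes reached an unadjusted p under 0.05, against 7.73% of all genes, and of the 8 named here Nptx2 alone kept one. Without controls 1 to 3, 2 of the 63 did, and these were Adamts1 and Adamts4.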

How the data were processed

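RNA of the ACC of 12 control and 10 stimulated mice was sequenced from full-length cDNA (SMARTSeq v4). Per the labels, the authors used cutadapt 1.10 for trimming, STAR 2.5.3a for alignment to mm10 and HTSeq 0.6.1p1 for counting, restricted to reads with a unique alignment, and they deposited these whole-number counts without normalization. Their normalized counts, fold changes and p-values (DESeq2 1.22.1) were not used. Columns of per-sample values that match no sample numbered 0.

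Here the counts were fitted in edgeR 4.0.16 (R 4.3.3) with TMM factors, glmQLFit and glmQLFTest and the terms run and group, for 17524 genes (a minimum of 10 counts, reached in 10 mice or more), and p-values were adjusted by Benjamini-Hochberg over all of them. The run stands for the study's batch covariate, which the labels do not give, nor the RNA integrity. The interaction of run and group tested the difference between runs. CPM use TMM-scaled library sizes, and log2 CPM a prior count of 2. SE is the log2 fold change over the root of F. Levels per kb divide by the merged exon length in GENCODE M21. Correlation p-values come from two-sided permutation of mice (100000 resamples). The fits were tested on simulated data. Alternatives were DESeq2 1.42.0, limma 3.58.1 voom, DESeq2 size factors, other count minimums, sva 3.50.0, the replicate block, each run alone and mice left out. Over 231 pairs of libraries the smallest mean chi-square per gene was 9.95, so none was a repeat of another. Reads carry no molecular identifiers, and p-values measure the spread between these mice.

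The genes, lists and the model were chosen with earlier results of these data known. Named besides the 10 genes are the matrix genes with an unadjusted p under 0.05 (12 at most), locus partners and the 3 closest genes to each member. Of these, 1 gene is not reported here.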

Additional observations from a re-analysis of the deposited data

Results flagged for a closer look

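Over 50 sets of mice (each of the 10 genes in the 10 stimulated mice and in each group of each run), 4 held a single value far from the rest of its set by Dixon's criterion, which chance alone meets in about 1 of 20 sets. Control 6 had 1.80 CPM of Acan in the first run, where the other controls had 0.398 to 0.836. Control 9 had 147 CPM of Ncan in the second run, against 210 to 234 in the other controls there. Stimulated replicate 1 had 141 CPM of Ptprz1 in the first run, against 110 to 115 in the other stimulated mice. Stimulated replicate 4 had 0.988 CPM of Has3, against 0.114 to 0.449 in the other stimulated mice.

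The group effects on Hapln2 in the runs had a difference of log2 fold changes of -1.78 (unadjusted p = 0.0018, adjusted p = 0.545, interaction term in edgeR). An unadjusted p under 0.05 was reached by 8.01% of all genes and, of the 10, by Hapln2 alone. Without controls 9 and 11 the difference was -0.89 with an adjusted p of 1.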

How the results depend on the processing

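None of the 10 genes had an adjusted p under 0.05 between groups under any alternative, single mice left out included. The number with an unadjusted p under 0.05 was 3 with the run as covariate and 4 with limma voom (Acan and Has3 in, Hapln2 out). It was 1 with group alone and 2 without controls 9 and 11 (Hapln1 and Ptprz1), where 7.73% of all genes had one. Within the first run it was 1 and within the second 5. Leaving out single mice gave 1 to 5 (1 without control 11, 5 without stimulated replicate 4). With 1 surrogate variable the unadjusted p was 0.00532 for Hapln1, 0.0037 for Hapln2 and 0.0507 for Ptprz1. Of the 10, 3 were lower within the first run (Tnr, Hapln1 and Ptprz1). Of the other matrix genes, 8 with the run, 2 had an unadjusted p under 0.05 with group alone, 14 with limma voom (2860 of all 17524 genes), 2 without controls 9 and 11, 2 without controls 1 to 3, 2 within the first run, 11 within the second and 7 to 13 with single mice left out (13 without control 5). The difference between runs, left out one mouse at a time as a step added after seeing the data, put 1 to 3 of the 10 genes under an unadjusted p of 0.05, with 3 without control 6 or stimulated replicate 1 and 2 without control 1, 3 or 10 or stimulated replicate 2 or 10. For single mice left out the share of all genes is not given, so those counts are not set against it. Across all genes the count at an unadjusted p under 0.05 was 2015 with the run and 632 with group alone. The causes of these shifts were not tested.

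Replicate numbers did not pair the mice. Deviations of same-numbered mice from their group means had r of -0.37 to 0.63, over 0.1 in 8 of 10 pairs, but from the means of group and run -0.13 to 0.27, over 0.1 in 3. With the replicate block in place of the run, Hapln1 had -0.20 (unadjusted p = 0.149), Ptprz1 -0.00026 (p = 0.999) and Hapln2 -0.36 (p = 0.197). With the replicate block and the run these were -0.38 (p = 0.00213), -0.23 (p = 0.0682) and -0.47 (p = 0.145). Replicates 5 and 6 join first-run controls with second-run stimulated mice, so the block without the run mixes the runs into the group difference. Under that block alone the log2 fold change was 0.12 for Vcan, 0.10 for Tnr and 0.12 for Hapln4. With the run as well it was -0.091 for Vcan, -0.020 for Bcan, 0.029 for Tnr and -0.031 for Hapln4.

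Log2 fold changes of several genes changed sign with the setting, among them Hapln2, Adamts4, Has3 and Acan, at -0.66, -0.60, -0.57 and -0.40 over both runs. Within the first run Acan had 0.079, Vcan 0.14, Hapln2 0.32, Hapln4 0.086, Has3 0.0059 and Adamts4 0.060. Within the second Bcan had -0.11, Ncan -0.024 and Tnr 0.031. With group alone Tnr had 0.066, with 1 surrogate variable Bcan had -0.039 and Tnr 0.017, with voom Ncan had -0.013 and Hapln4 0.037, and with at least 10 counts in every mouse Ncan had -0.0065. Without controls 9 and 11 Ncan had -0.044, Hapln4 0.056 and Hapln2 -0.23 between the runs. Leaving out single mice gave -0.042 to 0.077 for Bcan, -0.050 to 0.016 for Ncan, -0.098 to -0.0083 for Tnr and -0.14 to 0.013 for Hapln4, the last above 0 without control 9. With at least 10 counts in every mouse the run difference of Bcan had an unadjusted p of 0.0585. Counts of 4 to 41 for Has3 and 11 to 102 for Acan limit what could be seen of them.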
